A study of Homo sapiens with 6 samples.

Results

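The 10 genes described here make the HLA class I molecule and load it with peptide: the heavy chains HLA-B, HLA-C, HLA-E and HLA-F, the light chain B2M, the peptide pump TAP1 and TAP2, the loading bridge TAPBP (tapasin) and the inducible proteasome subunits PSMB8 and PSMB9. They were chosen by name, as the probe sets for which the array annotation gives 1 of these symbols and no other, which gave 47 of 49293 probe sets and 10 of 18132 genes. Transcripts of A375, a long-established human melanoma line, were measured on 6 Affymetrix arrays. UBE2S, a ubiquitin-conjugating enzyme that works with the anaphase-promoting complex, was knocked down with a lentiviral short hairpin RNA in the cells of 3 arrays, and the other 3 carried RNA of control A375 cells. What the control cells received, how many hairpins were used, whether the cells were a pool or a clone, and the time after transduction are not given in the sources used here.

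Class I molecules show peptides from inside the cell to CD8 T cells. Proteasomes cut proteins into peptides, TAP1 and TAP2 together pump the peptides into the endoplasmic reticulum, and tapasin holds an empty heavy chain and B2M dimer beside the pump until a peptide is bound. Interferons raise transcription of most of these genes, and in melanoma the pathway is known for its loss in tumours that escape T cells. The comparison asks how the transcripts of this pathway differ between UBE2S knockdown and control cells.

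The deposited values are log2 expression from which the median of the 6 arrays had been taken for each probe set, so a value is a distance from that median and holds no absolute level. All differences are knockdown minus control on the log2 scale, a gene's value on an array is the mean of its probe sets, and an adjusted p under 0.05 in limma over all genes counted as changed. UBE2S itself, which has 1 probe set, was read at -1.13, -1.05 and -1.01 in knockdown and at 1.06, 1.01 and 1.01 in control arrays. Its difference was -2.09 (SE 0.043), with an adjusted p of 9.23e-08 in limma. Spike-in transcripts added before hybridization were 0.17 higher in knockdown arrays and poly-A spike-ins 0.098 higher, so directions are also given relative to these. The 3 replicates of a group are labelled biological, with no word on separate cultures or days, so p-values measure the spread between these arrays, and the number of arrays limits the precision.

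Of the 10 genes 6 rose, namely HLA-B, HLA-C, HLA-F, B2M, TAP1 and PSMB8, and 2 fell, TAP2 and TAPBP. HLA-E and PSMB9 did not pass the test. Among all genes 21.4% rose and 18.6% fell, 40.1% in either direction. The paired chains of the pump moved apart: TAP1 stood 1.56-fold higher and TAP2 2.16-fold lower. The median of the 10 differences was 0.42, beside -0.0038 over all genes, and the 10 ranged from -1.11 to 0.68.

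**Figure D1:**
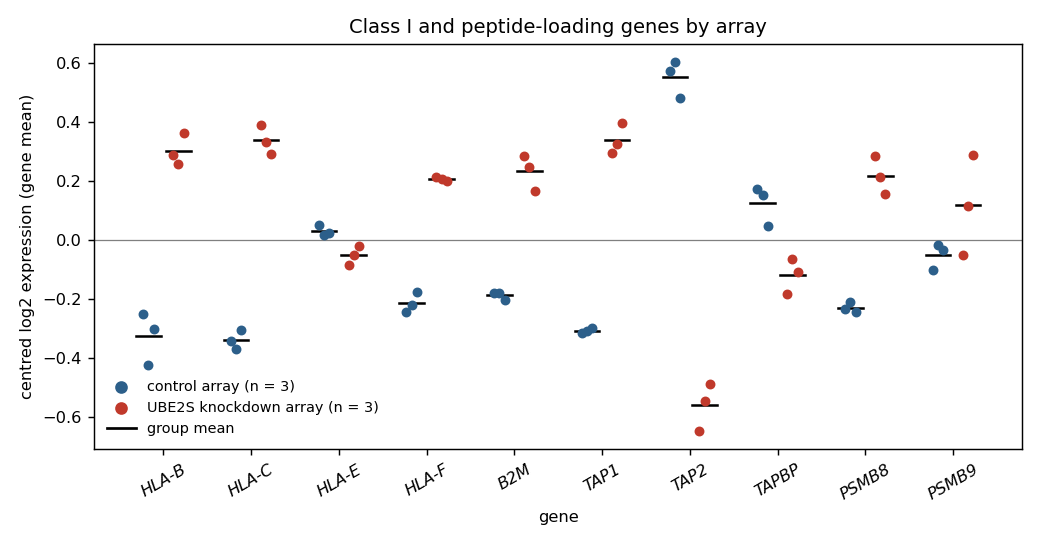
Centred log2 expression of the 10 genes (vertical axis; mean of each gene's probe sets) on the 3 control arrays (blue) and the 3 knockdown arrays (red), with black bars for group means. Knockdown points lie above control points for 6 genes and below for TAP2, TAPBP and HLA-E, and those of PSMB9 overlap.

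Upstream sequence is shown for 6 of these genes, because genes that rose and genes that fell hold the same interferon motif. RefSeq windows of assembly GRCh38.p14 were found for 9 of the 10 genes, all but HLA-E. The windows span 250 bases before to 50 after an annotated start, and the 250 bases before it are printed 5′ to 3′ along the gene. Capitals mark, on either strand, the core of the interferon-stimulated response element (ISRE), GAAA and GAAA with any 2 bases between, or, in HLA-B, an NF-kB motif, GGG and TTCCC with any 2 bases between. Overlapping matches run together.
TAP1 (chr6:32853705-32853954, minus strand): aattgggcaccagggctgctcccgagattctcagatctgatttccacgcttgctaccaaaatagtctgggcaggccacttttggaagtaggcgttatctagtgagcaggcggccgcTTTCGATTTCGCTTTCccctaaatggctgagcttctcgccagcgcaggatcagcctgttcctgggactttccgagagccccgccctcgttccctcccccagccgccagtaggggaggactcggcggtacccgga
TAP2 (chr6:32838740-32838989, minus strand): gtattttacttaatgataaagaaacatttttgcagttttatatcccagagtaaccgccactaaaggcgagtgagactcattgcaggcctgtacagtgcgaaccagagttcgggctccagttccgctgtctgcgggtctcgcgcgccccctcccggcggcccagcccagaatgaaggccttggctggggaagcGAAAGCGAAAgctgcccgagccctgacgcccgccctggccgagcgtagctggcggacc
TAPBP (chr6:33314079-33314328, minus strand): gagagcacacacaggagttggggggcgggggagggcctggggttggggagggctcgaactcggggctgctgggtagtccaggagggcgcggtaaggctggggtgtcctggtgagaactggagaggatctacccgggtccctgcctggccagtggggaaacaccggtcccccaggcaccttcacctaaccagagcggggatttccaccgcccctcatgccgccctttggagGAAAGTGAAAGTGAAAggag
B2M (chr15:44711267-44711516, plus strand): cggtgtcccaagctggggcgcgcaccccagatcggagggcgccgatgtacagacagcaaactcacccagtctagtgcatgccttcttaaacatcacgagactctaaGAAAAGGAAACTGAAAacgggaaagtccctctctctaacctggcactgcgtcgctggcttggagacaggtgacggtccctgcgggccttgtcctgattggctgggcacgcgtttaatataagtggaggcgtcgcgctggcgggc
HLA-F (chr6:29723184-29723433, plus strand): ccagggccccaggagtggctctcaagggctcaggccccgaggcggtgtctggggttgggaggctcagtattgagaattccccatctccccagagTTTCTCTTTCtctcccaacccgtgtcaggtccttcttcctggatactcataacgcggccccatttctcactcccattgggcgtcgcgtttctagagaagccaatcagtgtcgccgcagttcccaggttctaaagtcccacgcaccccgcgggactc
HLA-B (chr6:31357180-31357429, minus strand): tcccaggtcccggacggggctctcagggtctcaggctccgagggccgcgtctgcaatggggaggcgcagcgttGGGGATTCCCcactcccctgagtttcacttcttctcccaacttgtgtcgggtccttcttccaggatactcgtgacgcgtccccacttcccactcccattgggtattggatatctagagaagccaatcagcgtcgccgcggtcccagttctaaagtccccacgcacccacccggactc
The ISRE core was present in 6 of the 9 genes, against 4.38% of the 27305 genes with such windows. It was found in HLA-F, B2M, TAP1 and PSMB8, which rose, and in TAP2 and TAPBP, which fell. TAP1, TAPBP and B2M each hold 2 overlapping matches. In TAP2 the match spans -58 to -49, counting the start as 0, and in TAPBP the pair spans -20 to -5. PSMB8 has the match in the second of its windows, from -4 to 5. HLA-B, HLA-C and PSMB9 hold no exact match of the ISRE core in their windows. The NF-kB motif, in the exact form given above, was present in HLA-B alone of the 9, against 2.67% of all genes. Other forms of the NF-kB motif were not searched, so the other genes are not shown to lack them. Searched on both strands as well, the gamma-activated site TTCNNNGAA was found in TAP1 and PSMB8 (9.38% of genes). In both genes it lies in the second window, at another annotated start, which is not printed here. CCAAT, the box of NF-Y, was found in 6 of the 9 (39.7%). A match is a stretch of letters and not a measured binding site.

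HLA-B and HLA-C encode classical heavy chains, which present peptides to CD8 T cells. HLA-B was read at 0.29, 0.26 and 0.36 in knockdown and at -0.25, -0.42 and -0.30 in control arrays. HLA-C was read at 0.39, 0.33 and 0.29 against -0.34, -0.37 and -0.30. In both genes every knockdown array was above every control array, as held for 26.2% of all genes. HLA-B rose by 0.63 (SE 0.054), to 155% of control, with an adjusted p of 4.68e-05 in limma. HLA-C rose by 0.68 (SE 0.041), to 160% of control, with an adjusted p of 7.99e-06 in limma.

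Probe sets differed within both genes. A coarse signal class can be read from the rounding of the values, which places 26 of the 47 probe sets in a high class, 18 in a middle class and 3 in a low class. Both high-class probe sets of HLA-B gave 0.87, and both of HLA-C gave 0.83 and 0.94, whereas the remaining middle-class probe set of each gave 0.15 (SE 0.13) and 0.26 (SE 0.093) and did not pass the test. All 4 high-class probe sets have names ending in _x_at, which on Affymetrix arrays marks probes that can also match similar transcripts. The _at probe set of HLA-B, whose name marks no sharing, is the one at 0.15, so HLA-B did not pass the test on unshared probe sets, and HLA-C has none. Heavy chain genes resemble each other in sequence, and how the signal divides between HLA-B, HLA-C and other class I transcripts was not tested.

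HLA-F encodes a nonclassical heavy chain that natural killer cells recognise. Its values were 0.21, 0.21 and 0.20 in knockdown and -0.24, -0.22 and -0.18 in control arrays. Its knockdown group was the tightest of the 10 genes (SD 0.0067, n = 3). That SD is of a mean over 10 probe sets, whose own knockdown SDs ran from 0.0090 to 0.24. HLA-F rose by 0.42 (SE 0.035), to 134% of control, with an adjusted p of 4.17e-05 in limma. Its 10 probe sets fell into separate ranges: 3 gave between 0.92 and 1.01, 2 others that were called gave 0.26 and 0.43, and 5 did not pass the test at 0.011 to 0.25. No HLA-F probe set was of the high class. The 3 upper ones lay in the range of the high-class probe sets of HLA-B and HLA-C or just above it, and 2 of the 3 end in _x_at.

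HLA-E, another nonclassical heavy chain, presents leader peptides of other class I molecules to the NKG2A receptor. It was read at -0.084, -0.051 and -0.020 in knockdown and at 0.051, 0.018 and 0.024 in control arrays. The groups did not overlap, yet the difference of -0.083 (SE 0.036) did not pass the test (adjusted p = 0.104 in limma). Of its 6 probe sets 5 were high-class. One of the 6 was lower (-0.19, SE 0.043) and 1 was higher (0.26, SE 0.054), and the other 4 lay between -0.22 and -0.083. Relative to the hybridization spike-ins HLA-E stood at -0.25 (adjusted p = 0.00186 in limma), and relative to the poly-A spike-ins at -0.18 (adjusted p = 0.00723), both past the threshold. Under these centrings the median of all genes was -0.17 and -0.10, and under the first 50.7% of all genes were lower.

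B2M encodes the light chain shared by all class I molecules. It was read at 0.28, 0.25 and 0.17 in knockdown and at -0.18, -0.18 and -0.20 in control arrays. It rose by 0.42 (SE 0.041), to 134% of control, with an adjusted p of 9.70e-05 in limma. All 8 of its probe sets were of the high class and all were higher, from 0.31 to 0.51, so B2M and TAP1 were the genes that rose on each of their probe sets. These are not 8 separate readings: 2 of them differed by at most 3.43e-04 on any array. Its plain _at probe set gave 0.38. Within arrays, HLA-C minus B2M was 0.10 ± 0.021 (SD, n = 3) in knockdown and -0.15 ± 0.046 (SD, n = 3) in control arrays.

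**Figure D2:**
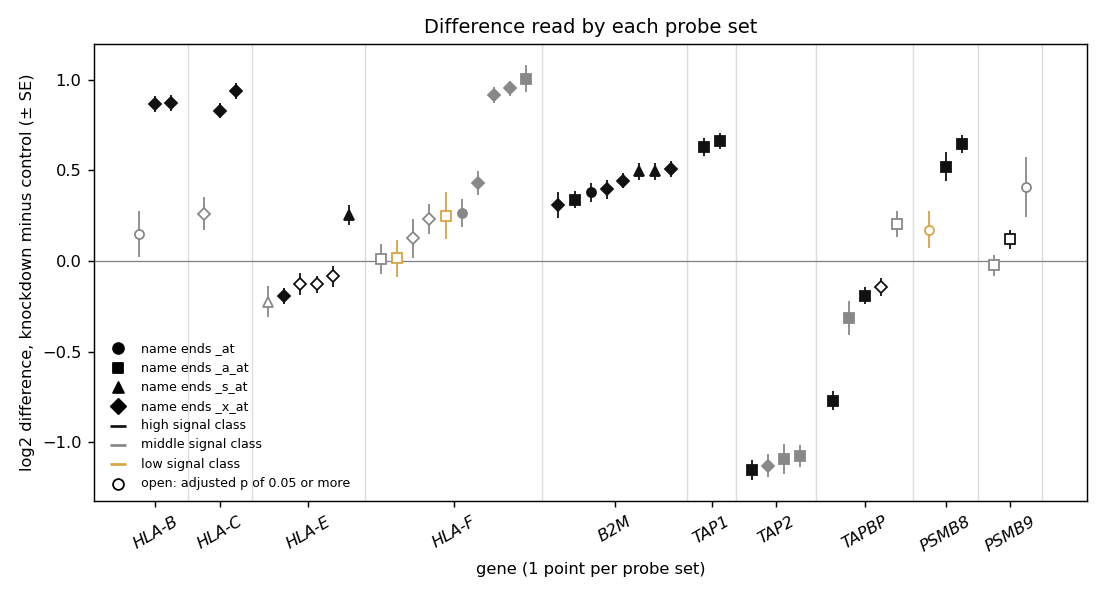
Log2 difference between knockdown and control, with its SE, for each of the 47 probe sets, grouped by gene along the horizontal axis. Shape gives the ending of the probe set name, colour the signal class, and open symbols did not pass the test. The 4 TAP2 probe sets lie between -1.15 and -1.08, whereas those of HLA-F spread from 0.011 to 1.01.

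TAP1 and TAP2 are the paired chains of the peptide pump, each of which needs the other for transport. TAP1 was read at 0.30, 0.33 and 0.40 in knockdown and at -0.32, -0.31 and -0.30 in control arrays. It rose by 0.65 (SE 0.039), to 156% of control, with an adjusted p of 7.99e-06 in limma, and its 2 probe sets, both high-class, gave 0.63 and 0.66. TAP2 was read at -0.65, -0.54 and -0.49 in knockdown and at 0.57, 0.60 and 0.48 in control arrays. It fell by 1.11 (SE 0.053), to 46.3% of control, with an adjusted p of 2.52e-06 in limma, which placed it at rank 71 of 18132 genes by the size of the fall. Falls of at least 2-fold were called in 0.535% of all genes. Groups did not overlap in either gene, and 23.9% of all genes lay lower without overlap.

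The 4 TAP2 probe sets, 1 high-class and 3 middle-class, gave -1.15, -1.13, -1.09 and -1.08, so every probe set read the fall at a like size. Within arrays, TAP1 minus TAP2 was 0.94, 0.87 and 0.88 in knockdown and -0.89, -0.91 and -0.78 in control arrays. The TAP1 to TAP2 ratio thus differed by 1.76 on the log2 scale, a difference that shifting whole arrays cannot alter. As levels were removed by the centring, the ratio itself is unknown.

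TAPBP encodes tapasin, the bridge between the pump and the heavy chain. It was read at -0.18, -0.063 and -0.11 in knockdown and at 0.17, 0.15 and 0.049 in control arrays, without overlap. TAPBP fell by 0.24 (SE 0.049), to 84.5% of control, with an adjusted p of 0.00465 in limma. Its 5 probe sets did not move alike: 1 gave -0.77 (SE 0.052), 2 others that were lower gave -0.31 and -0.19, and 2 did not pass the test at -0.14 and 0.20. The size of the fall thus rests on which probe set is read, and with the most variable one it was -0.77.

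PSMB8 and PSMB9 are catalytic subunits that interferon adds to the proteasome in place of PSMB5 and PSMB6. PSMB8 was read at 0.29, 0.22 and 0.15 in knockdown and at -0.23, -0.21 and -0.24 in control arrays, and it rose by 0.45 (SE 0.043), to 136% of control, with an adjusted p of 8.39e-05 in limma. Its high-class probe sets gave 0.65 and 0.52 and its low-class one 0.17 (SE 0.10), which did not pass the test. PSMB9 was read at -0.049, 0.12 and 0.29 in knockdown and at -0.10, -0.018 and -0.032 in control arrays, so the groups overlapped. The knockdown arrays spread more in PSMB9 than in any other of the 10 genes (SD 0.17, n = 3). The difference of 0.17 (SE 0.079) did not pass the test (adjusted p = 0.132 in limma). Its probe sets gave 0.41 (SE 0.17), 0.12 (SE 0.052) and -0.023 (SE 0.058). In the same order their knockdown SDs were 0.38, 0.052 and 0.099 (n = 3), so the spread lay mainly in the first. Without knockdown replicate 1 PSMB9 stood at 0.25 with an adjusted p of 0.0172 in limma, and relative to the hybridization spike-ins it stood at 0.0014.

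Inducible subunits were set against the constitutive ones they replace, within each array. PSMB8 minus PSMB5 was 0.16 ± 0.087 (SD, n = 3) in knockdown and -0.18 ± 0.017 (SD, n = 3) in control arrays, without overlap, a difference of 0.34 (exact permutation p = 0.10, two-sided, 0.15 adjusted over 3 pairs). With 3 arrays against 3, 0.10 is the smallest p that this test can give. PSMB9 minus PSMB6 differed by -0.082 with overlap (exact permutation p = 0.60), and PSMB6 alone rose by 0.25 (SE 0.038). With the most variable probe set of each gene the sign of this pair turned, to 0.16 (exact permutation p = 0.70). PSMB10 minus PSMB7 differed by 0.088 without overlap (exact permutation p = 0.10).

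At the level of probe sets, 22 of the 47 were higher, 8 were lower and 17 did not pass the test, where 19.5% of all probe sets were higher and 17.4% lower. Of the 26 in the high class, 17 were higher and 4 lower. Of the 18 in the middle class, 5 were higher and 4 lower, and none of the 3 in the low class was called by limma at an adjusted p under 0.05. Knockdown arrays lay above control arrays without overlap in 25 of the 47 probe sets, a larger share than the 25% of all probe sets. They lay below without overlap in 11 of the 47, for which the share over all probe sets is not given here. By name, 11 of 20 _x_at, 6 of 18 _a_at, 3 of 4 _s_at and 2 of 5 _at probe sets were higher. Shares over all probe sets of the same class or name ending are not given here, so these counts by class and name have no background beside them.

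**Figure D3:**
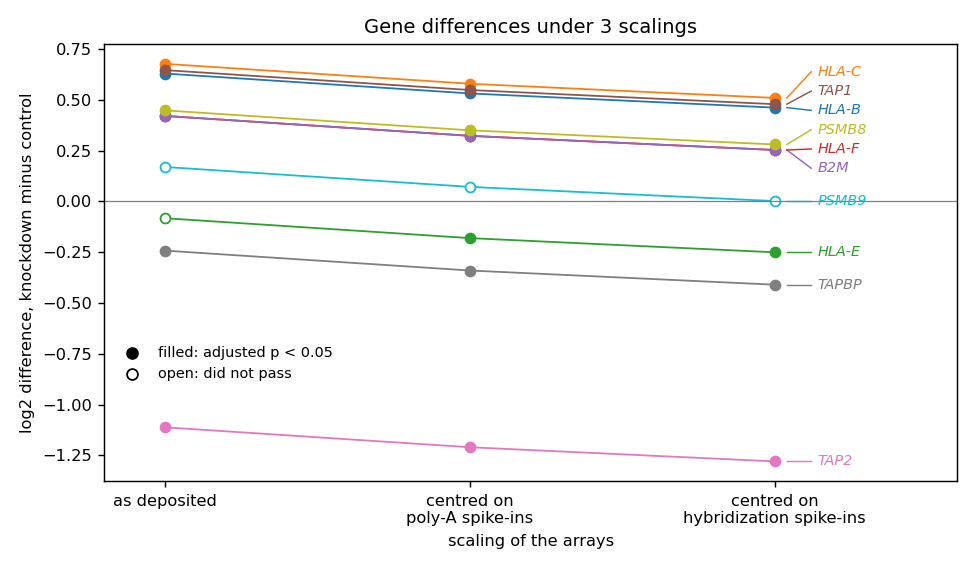
Log2 difference of each gene (1 line per gene) with the arrays as deposited, centred on the poly-A spike-ins and centred on the hybridization spike-ins. Filled points passed the test. The 6 genes that rose stay above 0, between 0.25 and 0.51 at the right, while HLA-E passes the test as lower and PSMB9 comes to 0.0014.

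Rises and falls of the 8 changed genes kept their direction and call under both spike-in centrings. Relative to the hybridization spike-ins, HLA-C stood at 0.51, TAP1 at 0.48, HLA-B at 0.46, PSMB8 at 0.28 and HLA-F and B2M at 0.25, TAPBP at -0.41 and TAP2 at -1.28. Under this centring the median of all genes was -0.17.

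Several of these genes are neighbours. In the RefSeq order of protein-coding genes on chromosome 6, HLA-DOB, TAP2, PSMB8, TAP1, PSMB9 and HLA-DMB follow each other. Along this row the differences were -0.20, -1.11, 0.45, 0.65, 0.17 and -0.39. HLA-DOB and HLA-DMB, which belong to class II presentation, were lower with adjusted p of 0.0479 and 5.23e-05 in limma. TAP1 and PSMB9 point away from each other with starts 488 bases apart, and their upstream windows share 13 bases. HLA-C and HLA-B are also adjacent, and the next gene, MICA, rose by 0.15 (SE 0.041), and stood at -0.018 relative to the hybridization spike-ins.

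Lists of other genes of the pathway held 75 measured genes, of which 19 rose (25.3%) and 21 fell (28%), with a median difference of -0.023. Relative to the hybridization spike-ins 8 rose and 46 fell, in a setting where 9.73% of all genes rose and 50.7% fell. The counts of each list below are therefore given both ways. Some genes named below have only 1 probe set, so agreement between probe sets cannot be read for them. Among these are SEC61B, LAP3, PSMB6, PSME2, PSMG1, PSMG2, PSMG3, THOP1, RNPEP and AZGP1.

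Among 14 genes of folding, assembly and trimming in the endoplasmic reticulum, 2 rose and 5 fell, with a median of -0.023, and relative to the hybridization spike-ins 1 rose and 8 fell. TAPBPL, a tapasin-like editor of class I peptides that works outside the loading complex, rose by 0.50 (SE 0.049), in contrast to TAPBP itself. The chaperone CANX, which folds new heavy chains, rose by 0.28 (SE 0.033), but did not pass the test relative to the hybridization spike-ins (0.11). SEC61B, a subunit of the channel through which new heavy chains enter the endoplasmic reticulum, fell by 0.83 (SE 0.036), the chaperone HSPA5 by 0.45 and the channel subunit SEC61A1 by 0.25. The peptide-trimming enzymes ERAP1 (0.11, SE 0.044) and ERAP2 (0.14, SE 0.053) did not pass the test, nor did the chaperone CALR (0.035, SE 0.049).

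Of 13 proteasome partners 4 rose and 3 fell, with a median of -0.023, but relative to the hybridization spike-ins 0 rose and 9 fell. PSME1 and PSME2, the paired chains of the PA28 activator, rose by 0.30 and 0.20, and PSMB6 by 0.25, and none of these passed the test relative to the hybridization spike-ins (0.13, 0.028 and 0.083). The assembly chaperones PSMG3, PSMG1 and PSMG2 fell by 0.43, 0.41 and 0.28. The inducible subunit PSMB10 stood at -0.0018 (SE 0.036), short of the threshold. Relative to the hybridization spike-ins it was lower (-0.17, adjusted p = 0.0158 in limma), near the median of all genes there (-0.17). Of 9 cytosolic peptidases 2 rose and 4 fell, with a median of -0.037, against 1 and 5 relative to the hybridization spike-ins. LAP3, an interferon-inducible leucine aminopeptidase, rose by 0.87 (SE 0.047). RNPEP rose by 0.19, a rise that was 0.021 relative to the hybridization spike-ins. TPP2, THOP1 and NPEPPS, which trim or destroy free peptides, fell by 0.46, 0.34 and 0.16.

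Of 14 transcription factors that act on class I genes 2 rose and 6 fell, with a median of -0.056, against 2 and 9 relative to the hybridization spike-ins. NLRC5, the transactivator of class I genes, rose by 0.56 (SE 0.040, adjusted p = 1.91e-05 in limma). IRF9, the DNA-binding part of the factor that reads the ISRE after type I interferon, rose by 2.03 (SE 0.070). CIITA, the class II counterpart of NLRC5, fell by 0.35, the interferon factor IRF1 by 0.24 and NFYA, a subunit of NF-Y, by 0.20. RFX5, RFXAP and RFXANK, which bind class I promoters with NLRC5, lay between -0.082 and 0.074 and did not pass the test. RFXAP, the lowest of them, was lower relative to the hybridization spike-ins (-0.25, adjusted p = 0.0153 in limma) and to the poly-A spike-ins (-0.18, adjusted p = 0.0362). The median of all genes under these centrings was -0.17 and -0.10.

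Of 13 class I-like heavy chains and their relatives 5 rose and 2 fell, with a median of -0.014. Relative to the hybridization spike-ins the counts were 2 rises and 7 falls, where 9.73% of all genes rose and 50.7% fell. Relative to the poly-A spike-ins they were 3 and 3, where 2486 of all 18132 genes rose and 6297 fell. MR1, which presents vitamin metabolites and pairs with B2M, rose by 0.44 (SE 0.040). AZGP1 rose by 0.35 and ULBP2 by 0.33, while MICB and ULBP3 fell by 0.40 and 0.36. ULBP2, MICB and ULBP3 are ligands of the NKG2D receptor of natural killer cells. AZGP1 did not pass the test relative to the hybridization spike-ins (0.18). The 6 probe sets of HLA-G, all of the _x_at kind, gave a gene value of 0.037 (SE 0.048), which did not pass the test. Of 12 genes on a list for surface turnover and ubiquitination, not all of which act on class I itself, 4 rose and 1 fell, with a median of -0.012. Beside the same shares over all genes, the counts were 2 rises and 8 falls relative to the hybridization spike-ins. They were 3 and 6 relative to the poly-A spike-ins. The ligase TMEM129 rose by 0.33, and the ligases MARCHF1 and MARCHF9 rose by 0.31 and 0.28, of which MARCHF9 did not pass the test relative to the hybridization spike-ins (0.12). The protease SPPL3 fell by 0.30.

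**Figure D4:**
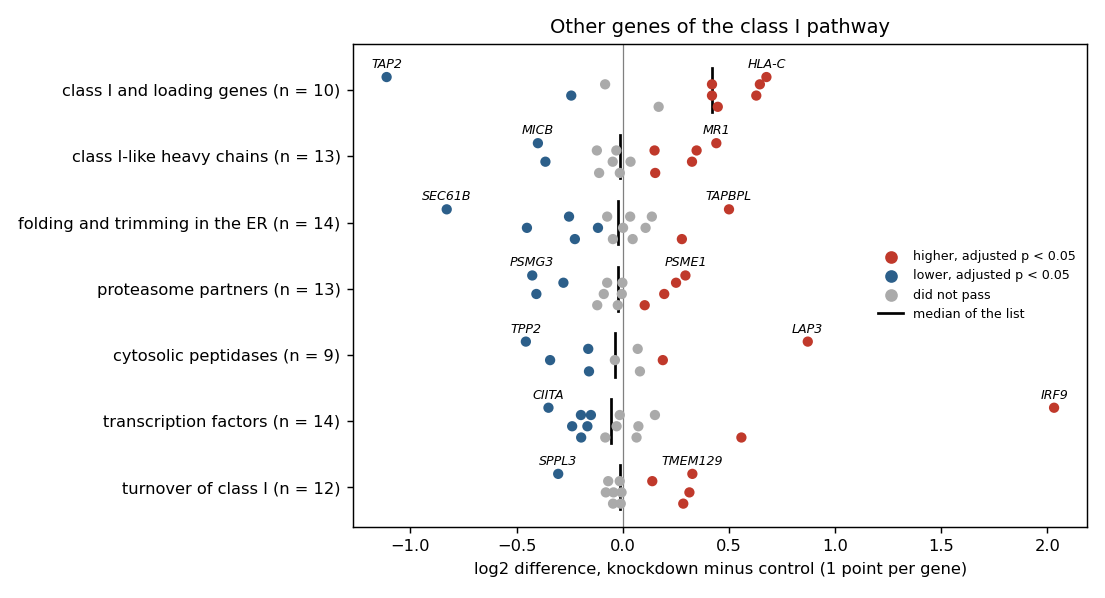
Log2 difference between knockdown and control for each gene (1 point) of the class I and loading set and of 6 lists of other pathway genes, with the median of each list as a black bar. The medians of the 6 lists lie between -0.056 and -0.012, and the highest point is IRF9 at 2.03.

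White blood cells carry high class I levels, so blood cell markers were read beside these results. Of 13 measured blood cell markers 1 rose, the haemoglobin gene HBB by 0.41, and the others did not pass the test. Relative to the hybridization spike-ins HBB stood at 0.24 and 4 markers fell (CD79A, FCGR3A, NKG7 and GNLY, from -0.22 to -0.14), where 50.7% of all genes fell. Relative to the poly-A spike-ins HBB rose and CD79A fell. The mean of the list as deposited lay between 0.0039 and 0.045 in knockdown and between -0.050 and -0.016 in control arrays. Of 9 markers of fibroblasts and endothelium 2 rose (LUM by 0.93 and VWF by 0.16) and 1 fell (DCN by 0.23), with list means of 0.0018 to 0.077 against -0.080 to -0.059. Relative to the hybridization spike-ins VWF came to -0.0056, and 1 of these 9 rose and 4 fell. Of 9 melanocyte lineage markers, read as a check of the labelled line, 3 rose (S100B by 1.09, MIA by 0.45 and PAX3 by 0.15) and 1 fell (MITF by 0.72). Relative to the hybridization spike-ins PAX3 came to -0.013, and 2 of these 9 rose and 2 fell. Centred values alone do not show whether any of these markers was expressed, and their signal classes are not given here. Their part in the results was not tested.

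The mean of the 10 genes was most like WBP2 over the 6 arrays (root mean square difference 0.0082), followed by HNRNPAB, VAMP3, ANKH and AMPD2 (at most 0.013). This mean, which differed by 0.20 on the log2 scale, joins genes that rose with genes that fell.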

How the data were processed

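RNA was taken up in Trizol, given a biotin label and put on Affymetrix arrays, per the labels' protocols. The deposited log2 values were made by the authors with limma, RMA and affy, per the submitters' processing notes, which give no version, role or order. In every probe set the 6 values have a median of 0 (at most 4.85e-07 away from it), a centring not described in the sources used here. The log base is taken from RMA output.

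The array annotation gave 1 symbol for 44988 of 49293 probe sets, 102 array controls aside. The difference between the groups was fitted with limma 3.58.1 (lmFit, eBayes; R 4.3.3), over 18132 genes or all probe sets, with Benjamini-Hochberg adjustment, two-sided. No filter on low values was applied in the main fit, as centred values hold no level, so all 10 genes were tested. The fit was tested on simulated data. Signal classes come from the single-precision step of differences between arrays (high: 8 or more before centring). A probe set can be placed too high by chance.

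The genes and lists were chosen with earlier results of these data known. Named genes are all 10, UBE2S, up to 3 changed genes per direction in each list, genes needed by their role, and the 5 genes most like the mean of the 10. Alternatives were the most variable probe set, plain _at probe sets, 3 scalings, array weights, a robust variance model, the replicate block, and leaving out each array. Use of the high class alone was chosen after seeing the data. Some genes of the lists are not analysed here.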

Additional observations from a re-analysis of the deposited data

Results flagged for a closer look

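A probe set outside the 47 is annotated to both HLA-B and HLA-C and so belongs to neither gene here. It was read at 0.085, 0.39 and 0.43 in knockdown and at -0.45, -0.47 and -0.085 in control arrays. It is listed as a signal outside the main measurement, in which every knockdown array lay above every control array, as in 25% of all probe sets. The difference of 0.64 (SE 0.13, adjusted p = 0.00485 in limma) lay between the lowest and highest probe sets of either gene.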

How the results depend on the processing

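Of the 10 genes, 6 rose and 2 fell with the arrays centred on their median, with array weights, with the robust variance model, with the most variable probe set and with the replicate block. With the high signal class alone 6 rose and 2 fell as well, but with PSMB9 called in place of HLA-F, which had no value there. Leaving out each array in turn gave 6 to 7 rises and 2 falls by gene, the seventh being PSMB9 without knockdown replicate 1, and 21 to 23 rises and 6 to 8 falls by probe set. Deviations of same-numbered arrays correlated at -0.062 to -0.014, and 0 of 3 knockdown arrays correlated best with its own number. No pairing was seen, but 3 such pairs cannot settle whether same-numbered arrays belong together. The replicate block changed no call of the 10 genes, with 25 probe sets higher and 8 lower, and moved the counts over all genes to 3615 higher and 3069 lower.

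With plain _at probe sets, whose names carry no letter for shared or alternative transcripts, 5 of the 10 genes had a value, of which 2 rose (HLA-F and B2M, 2 probe sets) and 0 fell, while HLA-B and PSMB8 lost their calls. Fewer genes were tested there, and as their number is not given here, these counts have no share beside them. Among all genes with such a probe set 909 rose and 977 fell, and 3 pathway genes rose and 10 fell. With hybridization spike-in centring 1764 genes rose and 9196 fell, 8 pathway genes rose and 46 fell, and 14 member probe sets were lower. With poly-A spike-in centring 2486 genes rose and 6297 fell, and 35 pathway genes fell. With the high class alone, where fewer genes were tested as well, 2284 genes rose and PSMB9 was called at 0.12. PSMB8 minus PSMB5 came to 0.51 with the most variable probe set and to 0.48 with the high class, PSMB10 minus PSMB7 to 0.23 and 0.12, and PSMB9 minus PSMB6 to 0.16 with the most variable probe set. Signal over background is unknown because levels were removed. Apart from the counts that follow from testing fewer genes, the cause of these differences was not tested.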
